A study of Mus musculus with 6 samples.

Results

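The genes described here are 31 genes of the interferon response and of antigen presentation by class I MHC molecules. They were taken by symbol from the 27998 genes of the count tables, and all 31 were found. The 20 interferon response genes are Ifit1, Ifit2, Ifit3, Isg15, Irf1, Irf7, Irf9, Stat2, Ifih1, Bst2, Ifitm3, Oasl2, Oas1a, Rtp4, Usp18, Ifi27, Ifi35, Ifi44, Rsad2 and Xaf1. The 11 antigen presentation genes are H2-K1, H2-D1, H2-T23, B2m, Tap1, Tap2, Tapbp, Psmb8, Psmb9, Psmb10 and Nlrc5.

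Their levels were read from droplet single-cell RNA sequencing (10x Chromium) of the preoptic region of the mouse hypothalamus, a region that holds neurons for mating, parenting, sleep and body temperature. The study made 3 libraries from female and 3 from male mice, aged 60 to 70 days, which had lived singly for 3 days. Each library pooled 3 mice, so animals within a library cannot be told apart and the library is the replicate here. The tissue was dissociated with protease and living cells were sorted before capture. No genotype, strain, infection or interferon treatment is named in the sources used here, and the same handling applies to both sexes. Every level below is therefore one measured in cells that had been through dissociation and sorting, with no intact tissue beside them.

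In total 31299 cell barcodes carried 217266089 unique molecular identifiers (UMIs), each of which counts 1 captured mRNA molecule. The 30824 cells with at least 500 genes and at most 20% mitochondrial UMIs were kept. Kept cells per library ranged from 410 in female replicate 3 to 9749 in female replicate 2, and the median depth per library from 2684 to 6757 UMIs. A barcode found in more than 1 library was carried by 941 cells (3.05%).

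Cells were assigned to 10 classes by counting how many marker genes of each class had a UMI, and none of the 31 genes served as a marker. Endothelial cells were 350 (marked by Cldn5, Flt1, Pecam1, Cdh5 and others), mural cells 377 (Rgs5, Vtn, Pdgfrb), microglia 720 (Tmem119, P2ry12, Siglech) and macrophages 43 (Mrc1, Pf4, F13a1). Astrocytes were 667, oligodendrocyte precursors 1393, newly formed oligodendrocytes 212, mature oligodendrocytes 6445, inhibitory neurons 13103 and excitatory neurons 1902. The classes are rebuilt from markers and may differ from the study's own. Sums of fewer than 10 cells were left out, so macrophages rest on female replicates 1 and 2 only (n = 2), and mural cells, newly formed oligodendrocytes and excitatory neurons on 5 libraries each without female replicate 3. Levels are CPM values, a gene's share of all UMIs of the class in a library multiplied by 1e+06, given as mean ± SD over libraries. They are compared between classes for the same gene, not between genes.

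Marker levels of the classes are given next. Markers of these lists also set the classes, and cells that passed for several classes were left out. The levels therefore follow in part from the rule and are no separate check of the names. Endothelial markers summed to a mean of 26095 CPM in endothelial cells (range 23053 to 30701 over 6 libraries) and to 102 CPM in inhibitory neurons. The 12 macrophage markers summed to 196 CPM in endothelial cells (125 to 269) and to 11515 CPM in macrophages, with Mrc1, F13a1, Lyve1, Folr2, Ms4a6c and Clec10a at 0 in endothelial cells. The 12 microglial markers summed to 73.6 CPM in endothelial cells (37.1 to 125), with Tmem119, Sall1 and Slc2a5 at 0, against 13599 CPM in microglia. In macrophages the microglial markers reached 2312 CPM, and 10 of the 14 endothelial markers were at 0, Cldn5 and Flt1 among them. The 6 neutrophil and monocyte markers summed to 65.9 CPM in endothelial cells (28.8 to 133), with Retnlg, Plac8 and Ccr2 at 0, the 7 T and NK cell markers to 1.21 CPM, and all 4 B cell markers were at 0. The part of these other cells' RNA in the levels below was not tested.

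Type I interferons bind a receptor whose signal brings STAT2 and IRF9 into a complex that switches on genes through a DNA element called the interferon-stimulated response element (ISRE). Type II interferon acts through another element, the gamma-activated site (GAS). The induced genes block viral RNA, protein and membrane fusion, tune the signal itself, and raise class I MHC, the surface complex of a heavy chain and β2-microglobulin that shows peptides cut by the proteasome to CD8+ T cells. In the brain the vessel wall and the resident macrophages are the cells best known for such genes, while neurons are known for low class I levels.

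The 2 elements can be seen upstream of several of the genes whose levels are described below. RefSeq promoters (GRCm38.p6) were at hand for 26 of the 31 genes, and the 250 bases before the start site were searched on both strands. The ISRE was searched as GAAANNGAAA and was found in 9 of the 26 (34.6%), namely Ifit1, Ifit3, Isg15, Oas1a, Rsad2, Stat2, Bst2, B2m and H2-T23. Of all 27025 genes with a promoter, 3.46% held it. The GAS was searched as TTCNNNGAA and was found in 5 of the 26 (Bst2, Ifit2, Irf1, Oas1a and Psmb8), against 8.13% of all genes. A match is a match of letters, and no binding was measured. The stretches below, 5′ to 3′ on the gene's own strand with the matched letters in capitals, are those of genes with contrasting cell class patterns: Ifit1 and Ifit3 from 1 gene cluster on chromosome 19, Isg15 and Bst2 with overlapping matches, B2m from the presentation genes, and Irf1 with a GAS alone. They lie at chr19:34640765-34640833 (+) for Ifit1, chr19:34583353-34583436 (+) for Ifit3, chr4:156200855-156200916 (-) for Isg15, chr8:71537567-71537628 (-) for Bst2, chr2:122147528-122147577 (+) for B2m and chr11:53769904-53769952 (+) for Irf1.
Ifit1: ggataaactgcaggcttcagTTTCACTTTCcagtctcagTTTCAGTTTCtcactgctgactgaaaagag
Ifit3: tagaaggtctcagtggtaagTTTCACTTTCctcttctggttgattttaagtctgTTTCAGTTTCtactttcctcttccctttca
Isg15: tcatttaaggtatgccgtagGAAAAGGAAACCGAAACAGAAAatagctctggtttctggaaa
Bst2: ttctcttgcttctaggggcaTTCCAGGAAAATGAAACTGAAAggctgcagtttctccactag
B2m: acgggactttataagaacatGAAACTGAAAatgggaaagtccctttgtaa
Irf1: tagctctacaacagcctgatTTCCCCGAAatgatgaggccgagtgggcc
In Ifit1 and Ifit3 the capitals are 2 separate ISRE matches read on the other strand, in Isg15 they are 3 overlapping ISRE matches, and in Bst2 they are 1 GAS match followed by 2 ISRE matches, each overlapping the next.

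Endothelial cells had the highest mean level of most of the 31 genes. They ranked first of the 10 classes for 25 of the 31 genes, against 11.7% of the 11679 genes tested. By role these were 17 of the 20 interferon response genes and 8 of the 11 presentation genes. Among them Nlrc5 was not one of the genes tested and had 3 endothelial UMIs, all in female replicate 1. Ifit2 ranked first by 24.4 against 24.1 CPM in macrophages. H2-D1 ranked first by its mean, although the edgeR fit called it lower in endothelial cells than in microglia. Microglia ranked first for Isg15, H2-K1 and B2m, macrophages for Bst2 and Psmb8, and newly formed oligodendrocytes for Ifi27. For Irf1, Irf7, Rtp4, Ifi35, Ifi44, Rsad2, Xaf1, Tap1 and Tap2 the endothelial libraries did not overlap those of the second class. The same held for Bst2, Ifi27 and B2m in their own first classes. For Irf1, Irf7, Rtp4 and Rsad2 the second class was macrophages, and for Bst2 the first, with 2 libraries only. The share of all genes without such an overlap was not computed.

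**Figure D1:**
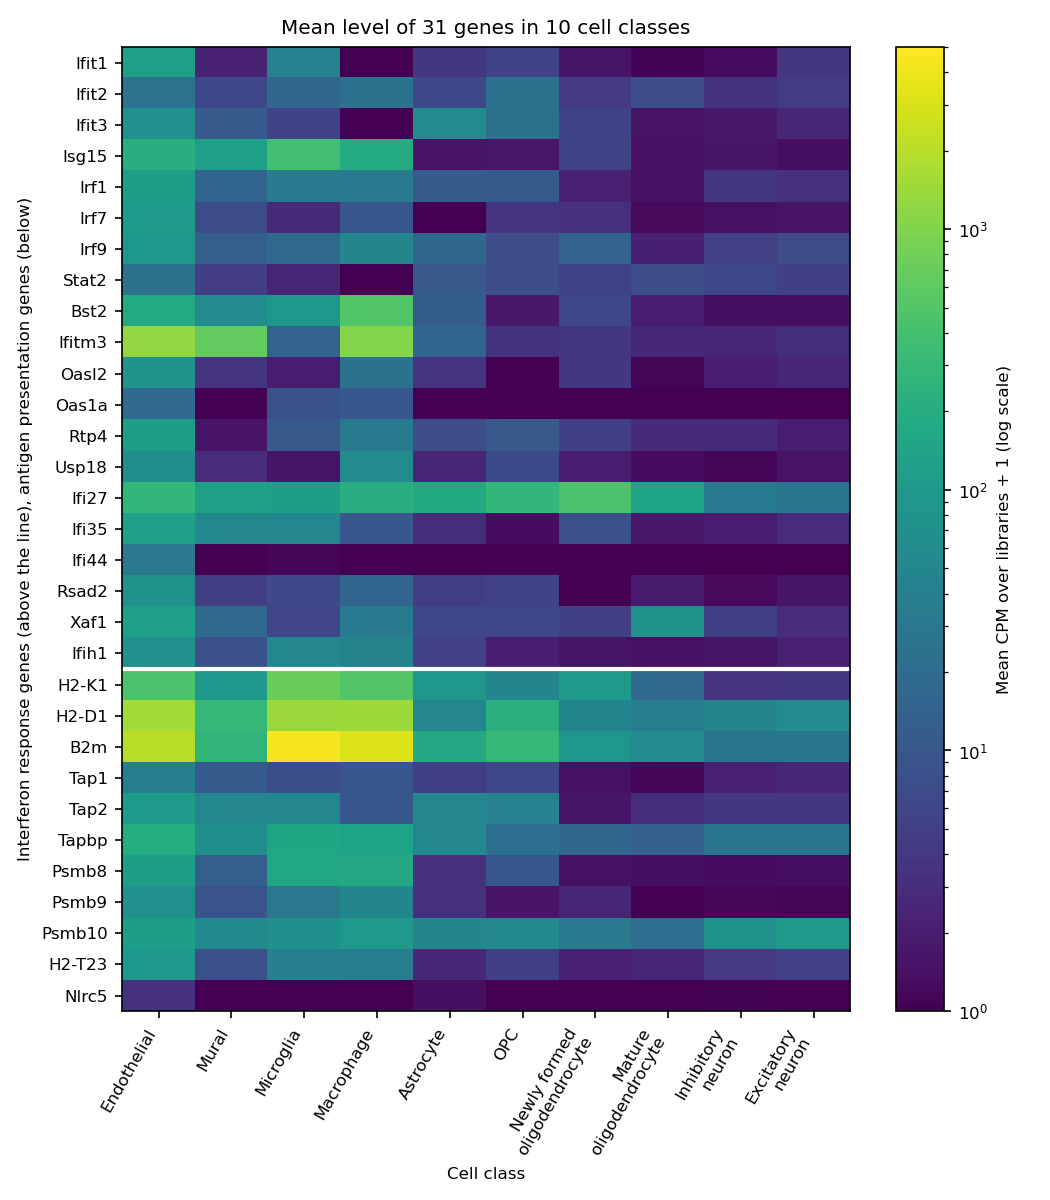
Mean level of each of the 31 genes (rows) in 10 cell classes (columns), as CPM + 1 on a log colour scale, with interferon response genes above the line and antigen presentation genes below it. Endothelial cells have the highest mean for 25 genes, and B2m, H2-D1, Ifi27, Tapbp and Psmb10 exceed 10 CPM in every class.

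Summed over the 20 interferon response genes, endothelial cells carried 3213 ± 408 CPM (n = 6, 2608 to 3822) and macrophages 2259 ± 284 CPM (n = 2). Mural cells carried 1086 ± 185 CPM (n = 5), microglia 846 ± 166 CPM (n = 6), inhibitory neurons 58.7 ± 3.86 CPM (n = 6) and excitatory neurons 57.8 ± 10.8 CPM (n = 5). The lowest endothelial library lay above the highest library of every other class for this sum. Ifitm3 alone gave a large part of it, with means of 1273 CPM in endothelial cells, 1018 CPM in macrophages and 637 CPM in mural cells. Microglial libraries had 0 to 30.0 CPM of Ifitm3, so the order of mural cells and microglia rests on that gene. The order of the 11 presentation genes was another one. Microglia carried 7070 ± 559 CPM (n = 6, 6248 to 7702), macrophages 5609 ± 11.9 CPM (n = 2), endothelial cells 4712 ± 833 CPM (n = 6, 4113 to 6363) and mural cells 856 ± 130 CPM (n = 5). The highest endothelial library, female replicate 3, overlapped the microglial range. B2m weighed most in this sum, with means of 4424 CPM in microglia, 3191 CPM in macrophages and 1980 CPM in endothelial cells. Mature oligodendrocytes had the lowest sum of presentation genes, at 150 ± 20.4 CPM (n = 6), below inhibitory neurons at 188 ± 8.89 CPM (n = 6) with ranges that overlapped. That order rests on Psmb10, which had a mean of 19.8 CPM in mature oligodendrocytes and 65.4 to 82.0 CPM in inhibitory neuron libraries.

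Of the genes that sense virus or carry the signal, Irf7 and Irf1 were higher in endothelial cells than in microglia, while the sensor gene Ifih1 was not told apart between them. Irf7, the factor that amplifies type I interferon production, stood at a lowest, median and highest of 68.3, 103 and 159 CPM in endothelial libraries and at 0, 1.64 and 4.42 CPM in microglia. The 2 sets did not overlap, and the edgeR difference was 4.69 ± 0.39 on the log2 scale (SE, adjusted p = 1.00e-17). In astrocytes Irf7 had 0 of 1958896 UMIs, which makes the endothelial level at least 67.3-fold higher when 3 UMIs over the class are taken as the limit that a count of 0 allows. Counting error alone is covered by such limits. Phrf1 overlaps Irf7 on the other strand, and whether the counting used strand is unknown, so the division of their reads is uncertain. Irf1, a factor induced by both interferon types, had 76.5, 95.9 and 159 CPM in endothelial cells and 15.3, 20.6 and 72.7 CPM in microglia, again without overlap, although the top microglial library, female replicate 3, held 12 cells. The difference was 1.26 ± 0.25 (adjusted p = 1.28e-05).

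Irf9 and Stat2, the partners in the complex that binds the ISRE, were detected more widely. Irf9 had 56.9, 91.7 and 133 CPM in endothelial cells and means of 17.7 CPM in microglia, 15.6 CPM in astrocytes, 4.27 CPM in inhibitory neurons and 1.12 CPM in mature oligodendrocytes. Endothelial cells exceeded neurons for Irf9 by 4.28 ± 0.21 on the log2 scale (adjusted p = 1.81e-31). Reads of Irf9 cannot be parted with certainty from those of Rnf31, which overlaps it on the same strand. Stat2 was thin: its endothelial libraries ran from 0 to 37.1 CPM around a median of 26.4, and the means in astrocytes (9.76 CPM), mature oligodendrocytes (6.51 CPM) and inhibitory neurons (5.06 CPM) lay within that range. Ifih1, which encodes the cytoplasmic sensor of double-stranded RNA MDA5, had 45.6, 72.7 and 106 CPM in endothelial cells and 23.5, 36.2 and 145 CPM in microglia. These ranges overlapped through microglia of female replicate 3 alone, which held 12 cells, while the other microglial libraries had 23.5 to 40.1 CPM. The difference, 0.35 ± 0.25, did not pass the test (edgeR, adjusted p = 0.262).

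The 3 Ifit genes, whose products bind viral RNA and block its translation, differed in where they were found. Ifit1 had 53.0, 126 and 208 CPM in endothelial libraries and 13.7, 32.5 and 110 CPM in microglia, overlapping ranges with a difference of 1.51 ± 0.24 (adjusted p = 7.73e-08). The endothelial UMIs were spread, 177 over 103 of 350 cells with at most 7 in a cell. In microglia 107 UMIs lay in 38 of 720 cells with up to 12 in a cell, and 9 of the 11 UMIs behind the top library, male replicate 3, came from 1 cell. Mural cells had a mean of 1.31 CPM and macrophages none.

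Ifit3 was found in astrocytes too. Its endothelial libraries had 45.6, 72.1 and 111 CPM and its astrocyte libraries 38.3, 59.1 and 89.3 CPM, 2 ranges that overlapped over most of their length. Oligodendrocyte precursors followed with 15.4, 20.03 and 49.6 CPM, and microglia with 0, 3.99 and 10.0 CPM. Astrocytes exceeded mature oligodendrocytes (mean 0.546 CPM) by 7.06 ± 0.34 on the log2 scale (adjusted p = 1.06e-31). Ifit1, from the same cluster and with the same pair of motif cores shown above, had a mean of 2.87 CPM in astrocytes. Ifit3 has a near-identical copy, Ifit3b, and the division of reads between them is unknown. Ifit2 had means of 24.4 CPM in endothelial cells, 23.03 CPM in oligodendrocyte precursors and 16.1 CPM in microglia, and all 3 ranges overlapped. A UMI of Ifit2 was held by 6.57% of endothelial cells, 8.90% of precursors and 1.67% of microglia. The edgeR fit called Ifit2 higher in endothelial cells than in microglia, a call that hung on single libraries.

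Isg15, a ubiquitin-like protein that is attached to other proteins during the response, went the other way from Ifit1 and Ifit3. It had 253, 359 and 618 CPM in microglia, 102, 189 and 345 CPM in endothelial cells and 182 and 197 CPM in the 2 macrophage libraries. Endothelial libraries overlapped microglial ones at the top, and the difference was -1.52 ± 0.15 (adjusted p = 1.88e-14). Mural cells had 59.2, 80.6 and 219 CPM. Every class of neurons and of the astrocyte and oligodendrocyte lineages had a mean under 5 CPM. The endothelial excess over mural cells, 0.81 ± 0.23 (adjusted p = 0.00288), was lost without female replicate 1, female replicate 2 or male replicate 2, and with DESeq2. Usp18, the enzyme that removes Isg15 from proteins and damps the receptor, had 28.8, 59.0 and 133 CPM in endothelial cells and 121 and 0 CPM in macrophages. In microglia, where Isg15 was highest, Usp18 had a mean of 0.636 CPM from 3 UMIs.

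**Figure D2:**
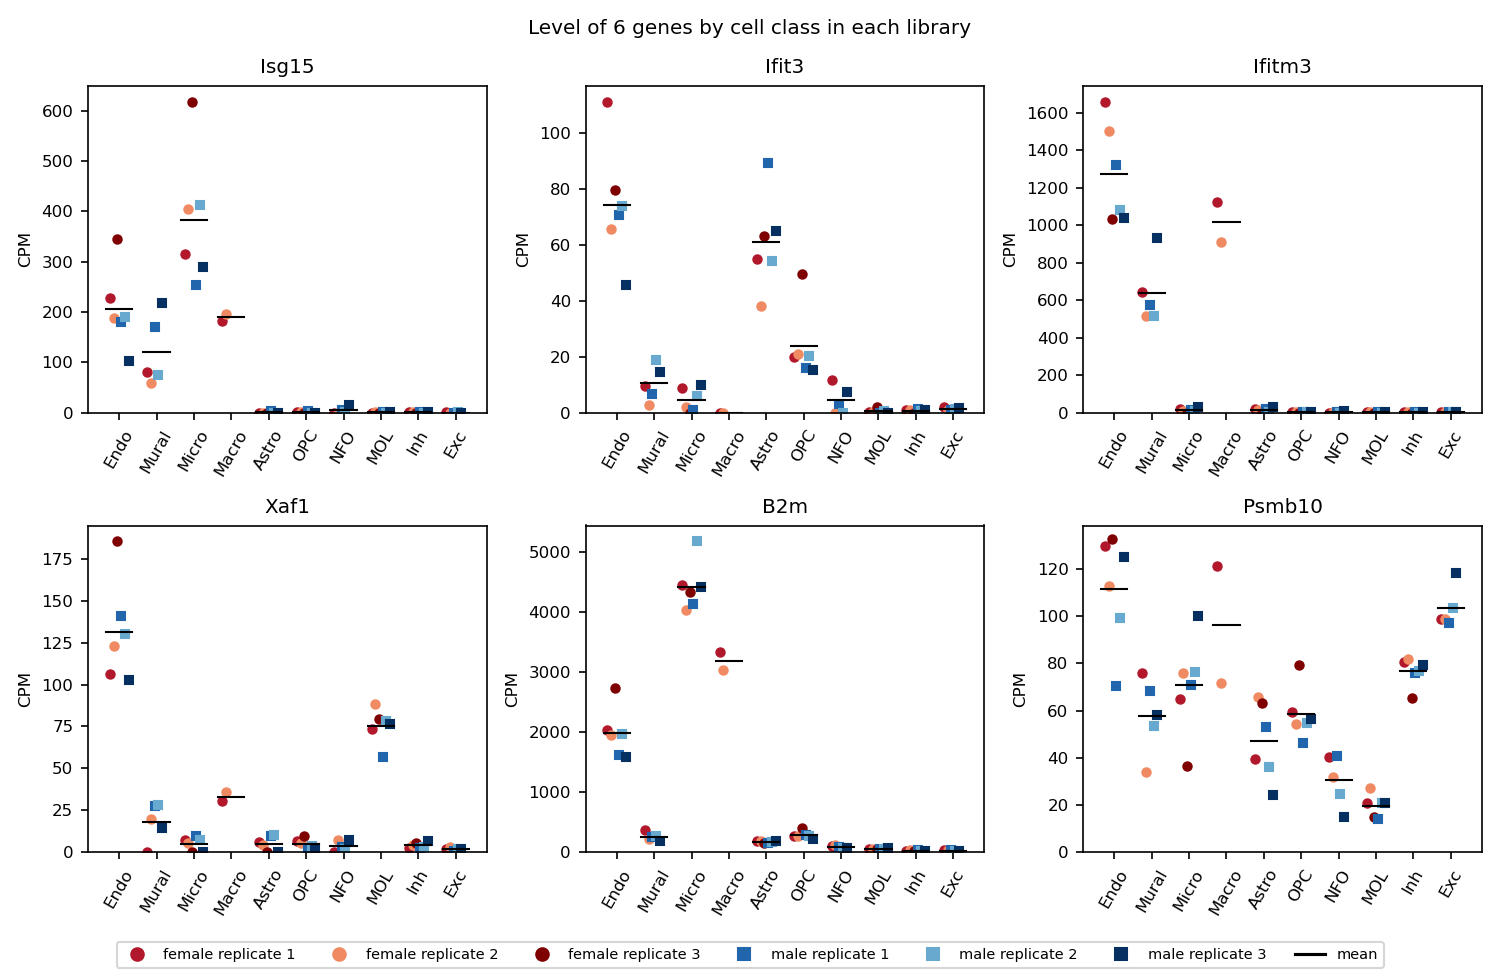
Level of Isg15, Ifit3, Ifitm3, Xaf1, B2m and Psmb10 in each library (dots, CPM on linear axes) by cell class, with the class mean as a line. Ifit3 stands out in endothelial cells and astrocytes, Xaf1 in endothelial cells and mature oligodendrocytes, and Isg15 and B2m in microglia.

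The membrane-acting restriction genes Ifitm3 and Bst2 were both high in macrophages, and of these Ifitm3 was nearly missing from microglia. Ifitm3, which hinders fusion of virus with the cell membrane, had 1034, 1202 and 1658 CPM in endothelial cells, 1123 and 913 CPM in macrophages, and 513, 576 and 933 CPM in mural cells. Microglia had 0, 11.998 and 30.02 CPM, far below and without overlap, and macrophages exceeded them by 5.28 ± 0.32 on the log2 scale (adjusted p = 4.26e-24). After thinning every cell to 1500 UMIs, 78.3% of endothelial cells, 52.8% of mural cells, 1.40% of microglia and 0.260% of inhibitory neurons had an Ifitm3 UMI (90.3%, 76.1%, 5.14% and 1.503% before thinning, with median depths of 3158, 3304, 5045 and 7175 UMIs). Bst2, tetherin, which holds budding virus on the cell, had 547 and 447 CPM in macrophages, 106, 190 and 218 CPM in endothelial cells and 0, 102 and 125 CPM in microglia. Macrophages exceeded microglia by 1.23 ± 0.35 (adjusted p = 0.0113), a call lost without either macrophage library, with the stricter class rule, after thinning and with DESeq2. Endothelial cells and microglia overlapped for Bst2 and were not told apart (0.20 ± 0.19, adjusted p = 0.428). Their means, 183 and 88.6 CPM, lay further apart than this fitted difference, for which samples were scaled by TMM and not by totals alone.

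Ifi44 was found almost only in endothelial cells at this depth, while Oasl2 and Oas1a were also seen in macrophages. Ifi44 had 37 UMIs in 34 endothelial cells (6.42, 30.3 and 51.0 CPM), 1 UMI in microglia, 3 UMIs in inhibitory neurons and none in the other classes. Against the 3-UMI limit its endothelial level was at least 12.5-fold higher than in mural cells, at least 19.6-fold higher than in astrocytes and at least 359-fold higher than in mature oligodendrocytes. Macrophages had too few UMIs (88819) for a bound. Oasl2, of the family of oligoadenylate synthetases that activate RNA decay, had 26.5, 88.9 and 114 CPM in endothelial cells and 0 UMIs in oligodendrocyte precursors, at least 156-fold lower, and its mean in microglia was 0.972 CPM. The 2 macrophage libraries had 17.9 and 30.4 CPM of Oasl2, a mean at 30.2% of the endothelial one, and over all libraries 7 of 43 macrophages held a UMI of it. Oas1a had 0, 17.5 and 41.7 CPM in endothelial cells and 0 in mural cells, astrocytes, oligodendrocyte precursors, newly formed and mature oligodendrocytes. Its mean in microglia was 7.49 CPM, 40.3% of the endothelial mean, but only 8 of 720 microglia (1.11%) held a UMI. In endothelial cells 27 of 350 (7.71%) did. The mean weighs each library alike, female replicate 3 with its 12 microglia among them. In the 2 macrophage libraries Oas1a had 0 and 17.9 CPM, a mean at 48.2% of the endothelial one that rests on 1 UMI.

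Rsad2, viperin, which makes a chain-terminating nucleotide, had 37.1, 73.9 and 115 CPM in endothelial cells, against means of 15.2 CPM in macrophages and 5.46 CPM in microglia. Rtp4 had 68.3, 116 and 139 CPM in endothelial cells and means of 33.1 CPM in macrophages and 0.564 CPM in mural cells, and the endothelial excess over mural cells was 6.98 ± 0.58 (adjusted p = 4.37e-18). Ifi35 varied least between endothelial libraries, with 128 ± 13.4 CPM (n = 6), and mural cells and microglia were alike in having means of 51.7 and 50.1 CPM. For each of these 3 genes the endothelial range lay above the next class without overlap.

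Xaf1 and Ifi27 were the interferon response genes with sizeable levels in the oligodendrocyte lineage. Xaf1, which favours cell death, had 102, 127 and 186 CPM in endothelial cells and 57.0, 77.3 and 88.3 CPM in mature oligodendrocytes, with no overlap. Newly formed oligodendrocytes and precursors had means of only 4.002 and 5.17 CPM, and microglia 4.88 CPM. Mature oligodendrocytes exceeded neurons by 5.22 ± 0.10 (adjusted p = 2.08e-59) and astrocytes were lower than mature oligodendrocytes, by a log2 difference of -3.66 ± 0.28 (adjusted p = 1.47e-20). Thinned to 1500 UMIs, 16.2% of endothelial cells, 11.0% of mature oligodendrocytes and 0.596% of inhibitory neurons had an Xaf1 UMI (31.4%, 31.3% and 2.43% before thinning).

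Ifi27, a mitochondrial and nuclear membrane protein, peaked in newly formed oligodendrocytes at 356, 431 and 556 CPM. Precursors (220, 287 and 318 CPM) and endothelial cells (194, 309 and 321 CPM) lay below that range and overlapped each other, and mature oligodendrocytes had a mean of 140 CPM. Even inhibitory and excitatory neurons had means of 30.9 and 25.2 CPM. Precursors exceeded neurons by 3.16 ± 0.09 (adjusted p = 1.05e-48).

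Among the presentation genes, B2m, the light chain shared by all class I molecules, was highest in microglia. Microglial libraries had 4036, 4369 and 5181 CPM, macrophages 3340 and 3042 CPM, endothelial cells 1583, 1960 and 2731 CPM and mural cells a mean of 260 CPM. None of the microglial libraries overlapped those of another class. Endothelial cells were lower than microglia by a log2 difference of -1.78 ± 0.13 (adjusted p = 5.00e-21) and higher than neurons by 6.16 ± 0.13 (adjusted p = 1.61e-57). Inhibitory and excitatory neurons had means of 26.5 and 26.4 CPM, under the 59.2 CPM of mature oligodendrocytes and the 172 CPM of astrocytes.

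The heavy chains H2-K1 and H2-D1 did not share an order. H2-K1 had 580, 643 and 1199 CPM in microglia, 607 and 376 CPM in macrophages and 319, 416 and 663 CPM in endothelial cells, and endothelial cells were lower than microglia by a log2 difference of -1.30 ± 0.11 (adjusted p = 2.59e-18). H2-D1 had 1379, 1434 and 2094 CPM in endothelial cells, 1154 and 1682 CPM in macrophages and 1190, 1360 and 1771 CPM in microglia, 3 overlapping ranges. The fitted endothelial minus microglial difference of H2-D1 was -0.49 ± 0.12 (adjusted p = 0.000543), and it was 0.12 when samples were scaled by their totals alone, so its direction hangs on the scaling. In neurons H2-D1 stood at means of 47.0 CPM (inhibitory) and 60.0 CPM (excitatory), and H2-K1 at 2.55 and 2.90 CPM. H2-T23, a class I relative read by NK cell receptors, had 46.3, 92.8 and 137 CPM in endothelial cells and means of 37.1 CPM in microglia and 6.93 CPM in mural cells. The class I heavy chains are near-copies of one another, so a division of their reads by the counting is uncertain.

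Of the genes that load peptide, Tap1 and Tap2 were higher in endothelial cells than in microglia, and Tapbp was not told apart. Tap1 and Tap2, the pair that forms the peptide transporter, had 22.8, 32.5 and 79.5 CPM and 91.8, 104 and 130 CPM there, and neither range overlapped that of the next class. Tap2 had near-equal means in astrocytes (53.2 CPM), microglia (52.0 CPM), mural cells (51.7 CPM) and oligodendrocyte precursors (43.3 CPM), while Tap1 had means of 11.1 CPM in mural cells and 6.80 CPM in microglia. Tap1 starts 211 bases from Psmb9 on the opposite strand and the 2 genes overlap, so their reads may not be fully separate. Tapbp, tapasin, which bridges the transporter and the heavy chain, had 157, 186 and 262 CPM in endothelial cells and a mean of 153 CPM in microglia, a difference of -0.20 ± 0.13 in the fit that did not pass the test (adjusted p = 0.228). By mean CPM Tapbp was higher in endothelial cells (192 CPM), the opposite sign to the fit, which scaled samples by TMM. Zbtb22 overlaps Tapbp on the same strand, so the division of reads between them is uncertain. Nlrc5, the transcriptional activator of class I genes, had 16 UMIs over all cells, 3 of them in endothelial cells and all 3 in female replicate 1, and was too low to be tested.

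Psmb8, Psmb9 and Psmb10 replace the catalytic subunits Psmb5, Psmb6 and Psmb7 in the immunoproteasome. Psmb8 made up 55.0 ± 9.41% of Psmb8 and Psmb5 UMIs together in microglia (n = 6), 40.4 ± 7.995% in endothelial cells (n = 6), 5.60% in mural cells (n = 5) and 0.130% and 0.136% in inhibitory and excitatory neurons. In the 2 macrophage libraries the share was 100% and 64.3%, from 15 Psmb8 UMIs. Psmb9 took 19.9 ± 12.6% of its pair in endothelial cells and 9.21% in microglia, whose top library, female replicate 3, reached 33.3% on 12 cells. Psmb10 did not follow the other pair. It had 97.2, 99.0 and 118 CPM in excitatory neurons, within the 70.6, 119 and 133 CPM of endothelial cells, and 65.4, 78.2 and 82.0 CPM in inhibitory neurons. Its share of Psmb10 and Psmb7 UMIs was 41.9 ± 8.06% in endothelial cells, 33.4 ± 1.29% in microglia, 30.8 ± 1.33% in excitatory neurons, 25.6 ± 2.47% in inhibitory neurons and 8.96 ± 1.15% in mature oligodendrocytes (n = 6, or 5 for excitatory neurons).

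**Figure D3:**
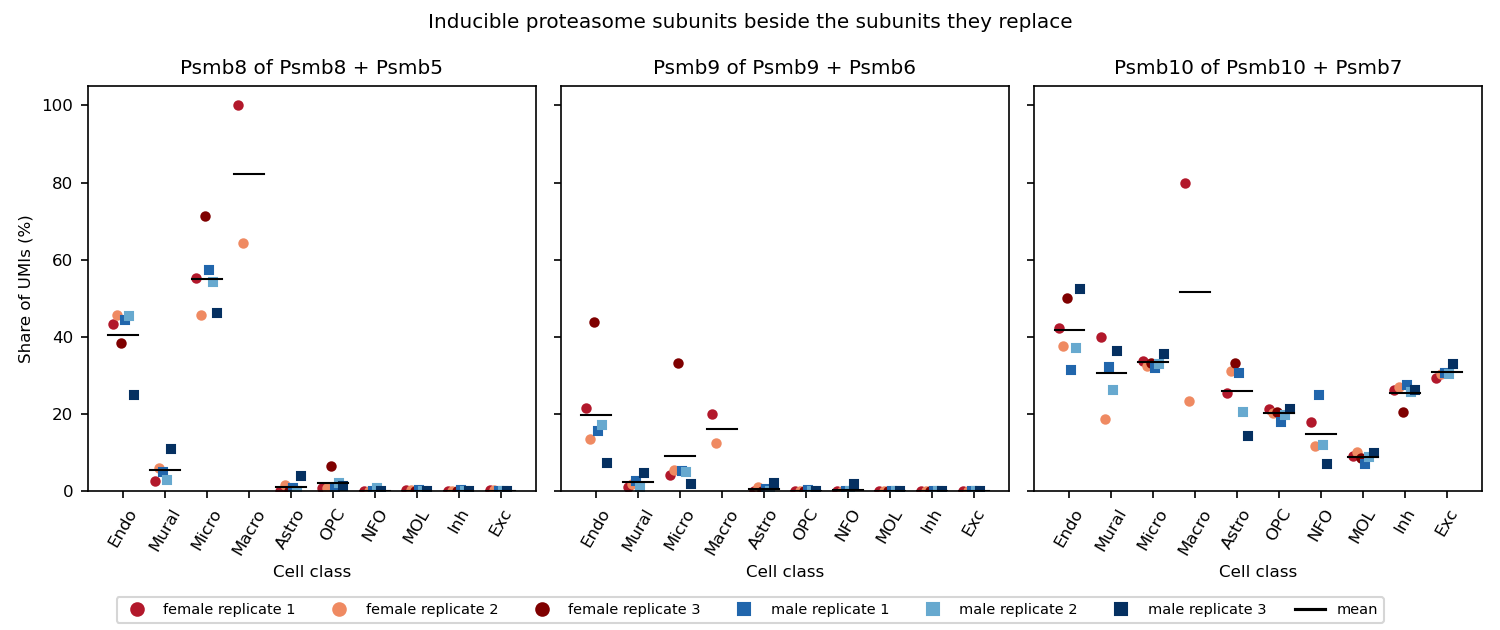
Share of the inducible subunit in the UMIs of each inducible and constitutive pair (percent, Psmb8 with Psmb5, Psmb9 with Psmb6, Psmb10 with Psmb7) in each library by cell class. Psmb8 is near 0 in neurons and 55.0% on average in microglia, whereas Psmb10 lies at 30.8% in excitatory neurons and 8.96% in mature oligodendrocytes.

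In the fit over all classes 30 of the 31 genes could be tested, all but Nlrc5. All 30 were higher in endothelial cells than in neurons (mean of both neuron classes), with 20 of 20 interferon response and 10 of 10 presentation genes, while 26.2% of the 11679 genes tested were higher and 39.9% lower. The median log2 difference was 6.15 for the members and -0.37 for all genes. The smallest adjusted p was that of Ifitm3, 9.45 ± 0.11 (adjusted p = 5.48e-76), and the smallest difference that of Psmb10, 0.34 ± 0.15 (adjusted p = 0.0387), which was lost without female replicate 1 or male replicate 2. Microglia were higher than neurons for 27 and lower for 0 (background 30.9% and 45.8%, medians 3.73 and -0.42), with Oasl2, Stat2 and Usp18 not passing the test. For endothelial cells, microglia and macrophages, 0 members were lower than in neurons by edgeR at an unadjusted p under 0.05 too, and 0 by DESeq2.

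Macrophages were higher than neurons for 18 and lower for 0 (8.55% and 14.3% of all genes, medians 3.58 and -1.37). Each of the 2 macrophage libraries mattered to this count, which was 14 without female replicate 1 and 10 without female replicate 2. In both cases 1 macrophage library remained and was assumed to vary like the other classes. Mural cells were higher for 21 and lower for Psmb10 alone (23% and 39.4%, medians 2.81 and -0.40). Of the 8 that passed neither way, Ifit1 had 0.74 ± 1.16 and Rtp4 -0.23 ± 1.37. The Psmb10 call, -0.53 ± 0.18, was lost without any single library except male replicate 1.

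Astrocytes were higher than neurons for 22 members and lower for Psmb10 (27.7% and 35.6% of all genes, medians 1.92 and -0.18). H2-K1 (4.91 ± 0.22), Ifit3 (5.86 ± 0.27) and Ifi27 (2.66 ± 0.14) had the smallest p-values, and Tap2 differed by 4.13 ± 0.24. H2-D1 was the weakest at 0.43 ± 0.19 (adjusted p = 0.0478), a call lost without female replicate 1, female replicate 2 or male replicate 1. Oligodendrocyte precursors were higher for 15 and lower for 4, Oasl2, Psmb10, Ifi35 and Tapbp (32% and 39.3%, medians 1.17 and -0.12). B2m (3.19 ± 0.13), H2-D1 (1.95 ± 0.12) and Tap2 (3.74 ± 0.17) were among those higher in precursors.

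Mature oligodendrocytes were split, with 9 members higher than in neurons and 9 lower (35.2% and 46.8% of all genes, medians -0.05 and -0.18). Higher were Xaf1, Ifi27 (2.86 ± 0.08), H2-K1 (2.99 ± 0.14), B2m (1.61 ± 0.12), Ifit2, Bst2, Stat2, Rtp4 and Rsad2. Lower were Psmb10 (-1.59 ± 0.08), Tapbp (-0.61 ± 0.10), Tap1, H2-T23, Irf1, Irf9, Ifit1, Ifit3 and Oasl2. Astrocytes were higher than mature oligodendrocytes for 17 members and lower for Xaf1 (29.2% and 27.1%, medians 1.83 and 0.07).

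Within the vessel wall, all 30 tested members were higher in endothelial than in mural cells, while 15.8% of all genes were higher and 13.8% lower (medians 2.71 and 0.02). The differences ran from 0.81 for Isg15 to several powers of 2 for genes almost missing from mural cells, such as Ifit1 (6.34 ± 0.53). For genes well detected in both, Ifitm3 differed by 1.11 ± 0.10, Ifi27 by 1.07 ± 0.17, H2-D1 by 2.30 ± 0.15 and B2m by 2.80 ± 0.17. Ifit2 did not pass the test without female replicate 1 or female replicate 2, nor Psmb10 without female replicate 2.

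Endothelial cells and microglia each led in a different group of genes. In total 21 members were higher in endothelial cells and 5 lower (21.8% and 24.4% of all genes, medians 1.11 and -0.07). Of the 20 interferon response genes 17 were higher and Isg15 was lower. Of the 10 tested presentation genes 4 were higher (Tap1, Tap2, Psmb9 and H2-T23) and 4 lower (B2m, H2-K1, H2-D1 and Psmb8). Ifitm3 (6.02 ± 0.16), Usp18 (5.28 ± 0.59) and Oasl2 (5.23 ± 0.43) were among the widest differences. Scaling by totals alone moved the median of all genes from -0.07 to 0.58, turned H2-D1 and took Psmb8 from -1.01 ± 0.19 to -0.35 (adjusted p = 0.101). Single libraries decided 6 of the 26 calls. Tap1, Tap2 and H2-T23 were lost without female replicate 2, Psmb9 without female replicate 1 or female replicate 2, and H2-D1 without male replicate 1. Ifit2 was lost without female replicate 1, female replicate 2 or male replicate 3. Calls also hung on the method. DESeq2 called 21 members and lost Ifi44, Ifit2, Oas1a, Psmb9 and Tap2. Thinning lost H2-T23, Psmb9 and Tap2, and a fit with no filter on low counts lost Ifit2, Psmb9 and Tap2.

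**Figure D4:**
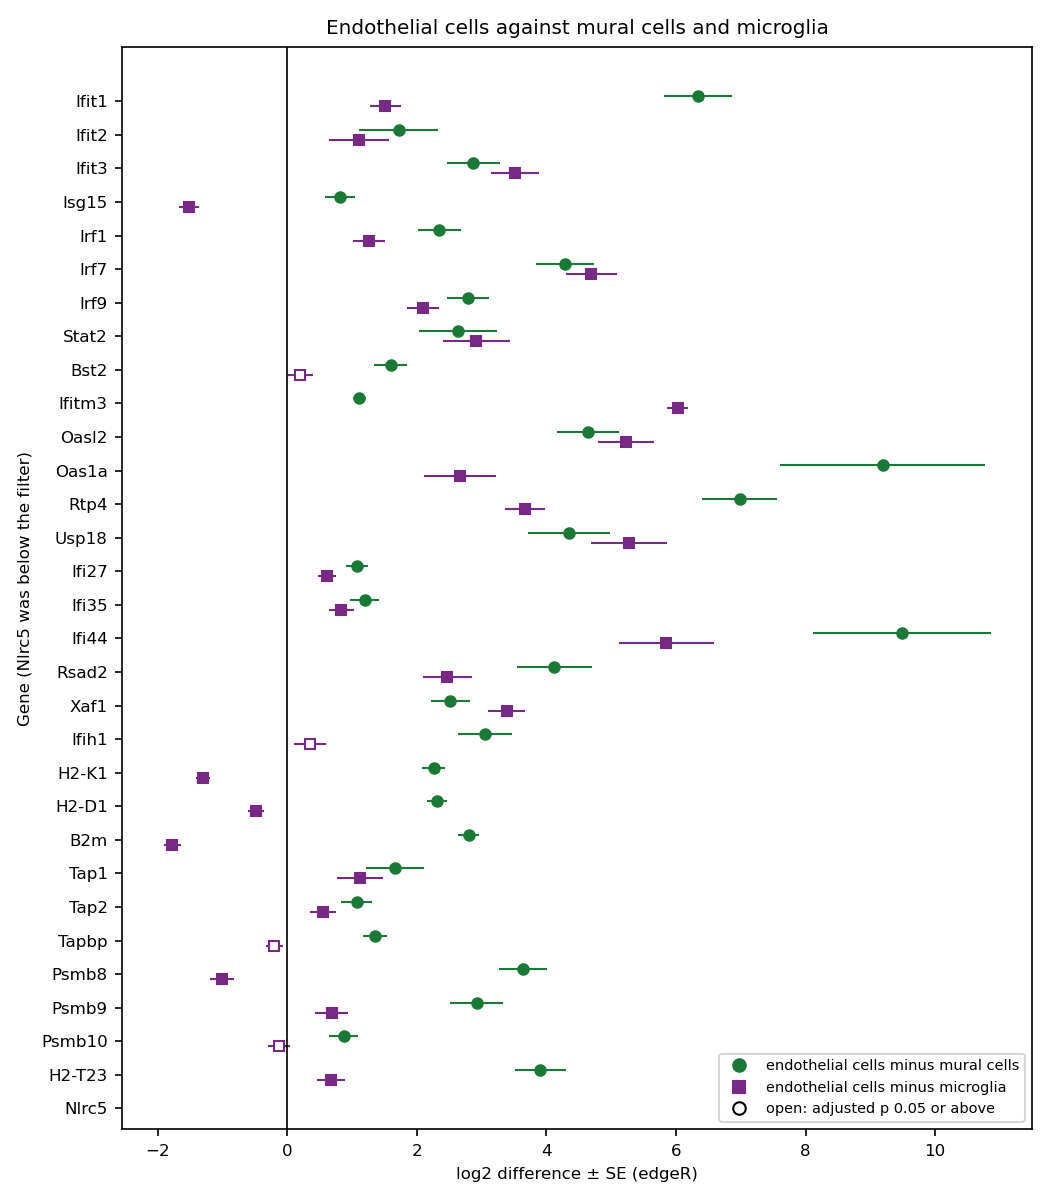
Log2 difference ± SE for each tested gene between endothelial and mural cells (green circles) and between endothelial cells and microglia (purple squares), with open symbols where the adjusted p was at least 0.05. All 30 circles lie right of 0, while B2m, Isg15, H2-K1, Psmb8 and H2-D1 have squares left of 0.

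Macrophages and microglia differed in 8 members, 3 higher in macrophages (Ifitm3, Usp18 and Bst2) and 5 lower (B2m, Isg15, H2-K1, Ifi35 and Tap2), with 1.64% and 8.63% of all genes and medians of -0.38 and -1.02. Of the 8, Ifitm3 was called in every alternative run. The 5 lower calls hung on the scaling. All were lost when samples were scaled by their totals alone, and all but B2m with DESeq2 size factors. Ifi35 and Tap2 were also lost with the stricter class rule, after thinning and with DESeq2. The Usp18 call rests on 4 UMIs in female replicate 1 and was lost without that library.

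Inhibitory and excitatory neurons differed little. No member was higher in inhibitory neurons and 4 were lower, Psmb10 (-0.33 ± 0.08), Ifit1 (-2.63 ± 0.37), Ifi35 (-1.02 ± 0.29) and H2-D1 (-0.41 ± 0.14), with 9.42% and 7.18% of all genes (medians -0.22 and 0.02). At an unadjusted p under 0.05 edgeR gave 1 higher (Xaf1) and 8 lower, and DESeq2 called 0 higher and 3 lower. Ifit1 had 2.13, 2.72 and 3.33 CPM in excitatory and 0, 0.336 and 0.539 CPM in inhibitory neurons, without overlap (adjusted p = 1.39e-08), and it was the member of the 4 that was called in every alternative run. The H2-D1 call was lost without female replicate 1, female replicate 2 or male replicate 1, while Ifi35 was lost when female replicate 1 was left out and when male replicate 2 was.

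Cells were then asked how many of the 20 interferon response genes they held together, each cell thinned to 1500 UMIs. At least 3 were seen in 190 of 327 endothelial cells (58.1%), 12 of 41 macrophages (29.3%), 23 of 373 mural cells (6.17%) and 34 of 713 microglia (4.77%). They were seen in 5 of 619 astrocytes (0.808%), 10 of 6412 mature oligodendrocytes (0.156%) and in 0 of 13092 inhibitory neurons. At least 5 were seen in 75 endothelial cells (22.9%), and the most in 1 cell was 13. The endothelial share was 60.6%, 62.1% and 72.7% in the female libraries (the last from 11 cells) and 63.6%, 54.4% and 37.9% in the male ones. Without Bst2, Ifitm3 and Ifi27, 3 of the genes with sizeable levels in other classes, the share was 27.2% of endothelial cells, 7.32% of macrophages and 1.12% of microglia. Free RNA can add UMIs to cells that do not express a gene, and markers of 1 class were found in others at unlike levels: the median endothelial marker stood at 0.621% of its endothelial level in mural cells, 0.0802% in microglia and 0.0733% in inhibitory neurons. Its part in these shares was not tested.

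**Figure D5:**
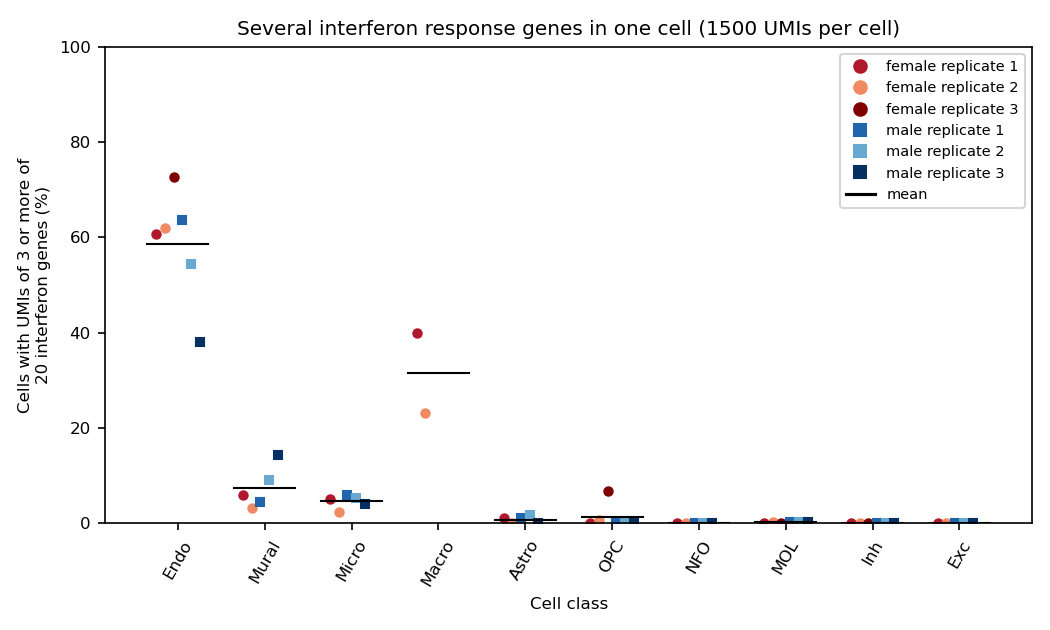
Percent of cells with at least 3 of the 20 interferon response genes after thinning to 1500 UMIs, by cell class, with 1 dot per library. Endothelial libraries lie between 37.9% and 72.7%, and neuron libraries at 0%.

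Other genes of the same pathways were followed in lists. Beside them, 26.2% of all genes tested were higher and 39.9% lower in endothelial cells than in neurons. Against microglia 21.8% were higher and 24.4% lower in endothelial cells, and against mural cells 15.8% and 13.8%. Of 29 further interferon-induced genes tested, 26 were higher and 0 lower in endothelial cells than in neurons (median 5.24), and against microglia 19 were higher and 7 lower (median 1.37). Ly6a, a surface antigen of the Ly6 family, had a mean of 2674 CPM in endothelial cells, 3.83 CPM in microglia and 1.57 CPM in inhibitory neurons. Ifitm2 had 482 CPM in endothelial cells and 6.99 CPM in microglia, and the chemokine gene Cxcl10 the reverse, 4.40 and 293 CPM.

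Receptor and signal transducer genes were higher in endothelial cells than in neurons for 7 of 9 and lower for 0 (median 2.74), with Ifnar1 at 3.96 ± 0.13 and Ifnar2 at 3.82 ± 0.14. Against mural cells 6 were higher and 1 lower, and against microglia 3 were higher and 4 lower, Ifngr2 at -3.37 ± 0.20 among the latter. Regulatory factors and inhibitors were higher than in neurons for 6 of 8, with the microglial factor gene Irf8 lower than in microglia by a log2 difference of -5.66 ± 0.23. Of 9 nucleic acid sensor and adaptor genes 5 were higher in endothelial cells than in neurons, Eif2ak2 (the kinase PKR) at 5.72 ± 0.28, and all 9 were higher in microglia than in neurons. Of all genes 26.2% were higher in endothelial cells and 30.9% in microglia than in neurons.

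Of 14 further class I and peptide loading genes, 11 were higher and 1 lower in endothelial cells than in neurons (median 1.48), and 1 was higher and 10 lower against microglia (median -0.92). H2-T22, a class I-like gene, was the 1 that was higher (2.29 ± 0.27), and Calr, the chaperone calreticulin, was lower (-1.43 ± 0.14). The constitutive subunits Psmb5, Psmb6 and Psmb7 were lower in endothelial cells than in neurons in 3 of 3 (-0.62 ± 0.12, -0.31 ± 0.13 and -0.38 ± 0.12). Their median of -0.38 lay near the -0.37 of all genes, of which 39.9% were lower. Class II presentation genes, which serve CD4+ T cells, summed to 9220.3 CPM in microglia and 28.8 CPM in endothelial cells, and 6 of 6 were lower in endothelial cells than in microglia.

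A list of 16 inflammatory and dissociation genes was followed beside the members. It summed to 56330.1 CPM in microglia (46797 to 64869), 30418 CPM in macrophages, 12944 CPM in endothelial cells (9314 to 17412), 5616 CPM in mural cells and 1676 CPM in inhibitory neurons (1144 to 1843). In endothelial cells 11 of 16 were higher than in neurons (26.2% of all genes), and 3 were higher and 10 lower than in microglia (21.8% and 24.4%). Against neurons, 2 of the list were higher and 2 lower in astrocytes (27.7% and 35.6% of all genes). In mature oligodendrocytes 9 were higher and 2 lower (35.2% and 46.8%). The members differed there, with 22 higher and 1 lower in astrocytes, and 9 and 9 in mature oligodendrocytes. The part of this list in the levels of the 31 genes was not tested. Ifnb1, the 1 interferon ligand gene of 8 that could be tested, had 90 UMIs in 28 of 720 microglia and 34 UMIs in 2 macrophages, 26 of them in 1 cell of female replicate 2, and 0 in endothelial cells, mural cells and astrocytes.

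Female and male libraries were compared in 8 classes and over all cells, and 0 of the tested members passed the adjusted threshold in any of the 9 comparisons by edgeR, by DESeq2, or with the replicate number as a block. Endothelial cells allowed tests of 25 members, mural cells 11, microglia 18, astrocytes 8, oligodendrocyte precursors 10, mature oligodendrocytes 10, inhibitory neurons 22, excitatory neurons 9 and all cells 30. Of all genes tested, 0.0613%, 0.0649%, 0.102%, 0.0559%, 0.0734%, 0.0552%, 0.0486%, 0.0599% and 0.0434% were called in these comparisons in the same order. At an unadjusted p under 0.05 there was 1 member in each of endothelial cells, mural cells, microglia, precursors and inhibitory neurons, and 0 in the other 4 comparisons. With the block, the calls over all genes were 7.86% in inhibitory neurons, 0.992% in mural cells, 0.82% in excitatory neurons, 0.298% in precursors, 0.17% in microglia, 0.151% in mature oligodendrocytes, 0.0824% in astrocytes, 0.0538% in endothelial cells and 0.0364% over all cells. The smallest adjusted p of a member with the block was 0.0784, in inhibitory neurons.

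Irf7 in endothelial cells had 120, 123 and 159 CPM in females and 77.0, 85.0 and 68.3 CPM in males, which did not overlap (0.64 ± 0.28, unadjusted p = 0.0343, adjusted p = 1.00 by edgeR). Ifi27 in oligodendrocyte precursors had 302, 311 and 318 CPM in females and 220, 273 and 247 CPM in males, which did not overlap either (0.33 ± 0.15, unadjusted p = 0.0440, adjusted p = 1.00 by edgeR). Isg15 in mural cells (-1.02 ± 0.41) and Ifit1 in microglia (-0.91 ± 0.41) were higher in males on average, and Ifitm3 in inhibitory neurons (0.84 ± 0.35) in females, each with ranges that overlapped. Mural cells had 2 female and 3 male libraries and the other 4 comparisons 3 of each, and none of these 5 differences passed the adjusted threshold.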

How the data were processed

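The authors deposited 1 matrix of whole-number UMI counts for all 6 libraries, in which the end of a barcode names its library, per the labels. Cell Ranger 2.0.0 and the build mm10 are named in the submitters' processing notes. The sources used here give neither the annotation nor the use of strand nor the rule for calling cells. The members and the lists were chosen with earlier results of these data known, and the marker numbers that a cell needs for a class were set after seeing their distribution. Cells with markers of several classes (2137) were left out, and Scrublet (scanpy 1.11.5, expected rate 0.06), which marked 1002 cells (3.25%), served as an alternative.

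Counts were summed per library and class. Class differences came from 1 edgeR 4.0.16 quasi-likelihood fit (R 4.3.3, TMM scaling, filterByExpr) with class and library as terms, as 12 contrasts over 11679 genes, adjusted by Benjamini and Hochberg with a threshold of 0.05. Sex was fitted within 8 classes and over all cells. The tests were tried on simulated data first. Female and male libraries share replicate numbers, and same-numbered libraries deviated together (correlations of 0.542, 0.140 and 0.418 over 16139 genes), although female replicate 2 went more with male replicate 1 (0.373) than with its own number. Every same-numbered pair was over 0.1, so the numbers were treated as pairs in an alternative fit. Depth per library ran from 1278429 to 81162330 UMIs, so female replicate 3 is the least precise. Named genes are all 31 members, plus up to 3 genes per list and comparison by smallest p. The lists of markers, receptors, regulators, sensors, other induced genes, class I, class II, proteasome and dissociation genes are reported above. Alternatives were DESeq2 1.42.0 and its size factors, library totals, no filter, other sets of classes, no library term, a stricter class rule, thinning to 1500 UMIs and leaving out each library. Gene positions came from GENCODE M21.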

Additional observations from a re-analysis of the deposited data

Results flagged for a closer look

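Of 47 levels examined in groups of 4 to 10 libraries, 10 had 1 library far from the others, where chance gives about 1 in 20. Female replicate 3, the shallowest library, was the distant one in 7 of these: the interferon response sum in microglia (1163 CPM, others 681 to 838), the presentation sum in endothelial cells (6363 CPM, others 4113 to 4609) and in oligodendrocyte precursors (953 CPM, others 613 to 701), H2-K1 in microglia (1199 CPM, others 580 to 756), and H2-D1 (2094 CPM, others 1379 to 1560), Tap1 (79.5 CPM, others 22.8 to 38.5) and Psmb9 (186 CPM, others 22.8 to 78.8) in endothelial cells. That library held 26 endothelial cells and 12 microglia.

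In male replicate 2, Ifi35 in endothelial cells stood low at 102 CPM (others 128 to 139), and B2m in microglia stood high at 5181 CPM (others 4036 to 4451). Nlrc5 had 13.9 CPM in endothelial cells of female replicate 1, from 3 UMIs, and 0 in the other libraries.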

How the results depend on the processing

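Counts that moved by more than 1.5 times were mostly small ones. Members lower in mural cells than in neurons went from 1 to 0 with no filter on low counts, without Scrublet doublets, with the stricter class rule, after thinning, with only the classes compared and with DESeq2, and ran from 0 to 1 when single libraries were left out. Thinning gave 10 members higher in macrophages than in neurons, 0 lower in astrocytes than in neurons, 5 higher and 5 lower in mature oligodendrocytes than in neurons, and 2 lower in inhibitory than in excitatory neurons. Thinning tested 8744 genes. Library totals gave 2 members lower in microglia than in neurons and 3 lower in endothelial cells than in microglia. Using only the classes compared gave 2 lower in precursors than in neurons and 8 higher in astrocytes than in mature oligodendrocytes, while 2 were lower there with no filter, without doublets and with the stricter rule. Members lower in macrophages than in microglia were 1 with DESeq2 size factors, 0 with library totals, 8 with no filter, 3 without the library term (no replicate block), 3 with the stricter rule and 2 with only the classes compared, and 1 was higher with the stricter rule, after thinning and with DESeq2. Leaving out single libraries gave 3 to 6 lower and 1 to 3 higher there, 10 to 18 higher in macrophages than in neurons, and 2 to 4 lower in inhibitory than in excitatory neurons.

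Directions turned in few values, most of them from a handful of UMIs. After thinning, Usp18 in mural cells against neurons was -0.74, Irf1 in macrophages against neurons -4.57, Rtp4 in mature oligodendrocytes against neurons -0.19, Irf9 in precursors against neurons -0.011, Oasl2 in astrocytes against mature oligodendrocytes -0.75 and Ifi35 in inhibitory against excitatory neurons 0.13. With library totals Psmb10 in microglia against neurons was -0.29 and H2-D1 in endothelial cells against microglia 0.12. With the stricter rule Usp18 and Ifih1 in macrophages against neurons were -2.78 and -4.86, and Usp18 against microglia -4.99. Leave-one-out ranges that crossed 0 were -0.24 to 3.78 for Ifi44 in microglia against neurons and -0.15 to 3.02 for Rsad2 in astrocytes against mature oligodendrocytes, both lowest without female replicate 2. In macrophages against neurons they were -0.89 to 7.53 for Oas1a, -4.30 to 6.07 for Ifih1 and -5.87 to 4.23 for H2-T23 (lowest without female replicate 2) and -2.11 to 7.65 for Usp18, which against microglia ran from -4.71 to 6.18 (lowest without female replicate 1). Of 4173 values over all settings and comparisons, 3925 kept their direction and side of the threshold. Apart from scaling and lower depth, which act by construction, the cause was not tested. The replicate block, which pairs same-numbered female and male libraries, gave 0 members in all 9 sex comparisons, as without it. Over all genes it called 1163 of 14790 in inhibitory neurons (7 without it), 100 of 12202 in excitatory neurons (7), 55 of 5544 in mural cells (3), 30 of 10061 in precursors (7), 17 of 11243 in mature oligodendrocytes (6), 11 of 6455 in microglia (6), 5 of 6070 in astrocytes (3), 2 of 3716 in endothelial cells (2) and 6 of 16467 over all cells (7).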

Other observations

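Ifnb1 UMIs were concentrated in few cells. All kept cells together held 147 Ifnb1 UMIs in 51 cells, and 1 microglial cell of female replicate 2 held 19 of the 40 UMIs of its class in that library. In male replicate 2 there were 38 UMIs in 10 microglial cells, and 11 inhibitory neurons held 11 UMIs, 1 in each.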
